A study of Homo sapiens with 9 samples.

Results

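The genes described here are 10 interferon-induced antiviral effectors: MX1, MX2, BST2, RSAD2, CMPK2, IFI6, IFI27, IFI44, IFI44L and EPSTI1. They were taken by name, and each symbol matched 1 of the 60617 Ensembl gene identifiers in the count files. All 10 had enough counts to be tested, among 18532 genes in all. The libraries came from PC-3, an established prostate cancer cell line that was derived from a bone metastasis and grows without androgen. There were 3 control libraries (Ctrl), 3 of cells given 1 µM of decitabine (Dec) and 3 of cells given 1 µM of decitabine together with 200 µM of S-adenosylmethionine, or SAM (Dec_Sam). The labels give 5 days of treatment, and the study's methods name a vehicle of dilute sulfuric acid and ethanol in PBS as the control treatment. The 9 libraries are from 1 cell line, and the labels do not say whether replicates were separate cultures, so p-values measure the spread between these libraries. Cells given SAM alone were not analysed here, so an effect of SAM cannot be given apart from decitabine.

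Cells that sense viral nucleic acid secrete type I and type III interferons, which bind surface receptors and activate the kinases JAK1 and TYK2. These phosphorylate transcription factors such as STAT2, which joins IRF9 and binds interferon-stimulated response elements, short repeats of the letters GAAA, near the start sites of effector genes. The effectors block viral entry, genome copying and release, and in many tumour cell lines they are also induced by drugs that remove DNA methylation. Decitabine is a cytidine analogue that is built into DNA and traps DNA methyltransferases, and SAM is the methyl donor of those enzymes.

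The libraries held between 21934307 and 22489684 counts each. TMM factors, which correct for differences in composition between libraries, were 0.895 to 0.902 in Ctrl, 1.058 to 1.078 in Dec and 1.033 to 1.070 in Dec_Sam. The epithelial keratins KRT8, KRT18 and KRT19 had 2156 or more counts in every library, and the summed level of the 5 epithelial markers was between 727 and 956 CPM, which are counts scaled to a common library total. The keratins went both ways within this sum. KRT8 was higher than in Ctrl, 2.21-fold in Dec and 1.74-fold in Dec_Sam. KRT18 was lower in Dec and Dec_Sam (1.19-fold and 1.35-fold), as was KRT19 (1.5-fold and 1.58-fold). CDH1, another epithelial marker, had only 36 to 40 counts in the controls and rose with both treatments, to 323 to 352 counts in Dec (7.65-fold) and 349 to 414 in Dec_Sam (9.03-fold). KLK3, which encodes prostate-specific antigen, had no counts in any library. The leukocyte marker PTPRC had 1 or 2 counts in the controls and 13 to 30 in the treated libraries, CD14 had 3 or 4 and 14 to 24, and the summed level of 6 leukocyte markers never passed 2.36 CPM. Of the plasmacytoid dendritic cell markers, IL3RA and LILRA4 had no counts and CLEC4C at most 2. The summed level of 4 fibroblast markers was 3.87 to 5.65 CPM in Ctrl, 54.8 to 82.5 in Dec and 53.5 to 68.6 in Dec_Sam, so it rose with both treatments and overlapped between them. The part of CDH1, of the keratins and of the fibroblast markers in the changes below was not tested.

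One library stood apart in the genes of interest. The summed level of the 10 genes was 307 to 362 TMM-scaled CPM in Ctrl and 3553 to 3937 in Dec. In Dec_Sam it was 583 and 626 in replicates 1 and 2 but 1685 in replicate 3. Each of the 10 genes was higher in Dec_Sam replicate 3 than in the other Dec_Sam libraries, from BST2 (1.5 times their mean) to RSAD2 (8.71 times), while over all genes tested the median of this ratio was 0.998. The main comparisons of Dec_Sam are therefore given with and without replicate 3. That library was picked by its high level of these genes. Larger differences from Dec, smaller errors and more calls without it therefore follow in part from the choice. Ctrl replicate 3 was the lowest control for every one of the 10 genes, at 0.331 to 0.965 of the mean of the other controls.

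Sequence around the start sites of these genes was read from the RefSeq promoter windows of GRCh38.p14, which run from 250 bases upstream to 50 bases downstream. Windows were matched for 9 of the 10 genes, all but MX2. The motif searched, on both strands, was GAAA, any 2 bases, and GAAA again, the core letters of an interferon-stimulated response element. It was present in 8 of these 9 genes, in contrast to 1195 of all 27305 genes with a window (4.38%) and 3.57% of all 35116 windows. The stretches below show where it lies, in capitals, with the flanking bases in lower case. Each is written 5′ to 3′ along the strand of its gene, so a copy on the opposite strand reads as TTTC letters.
MX1, chr21:41420559-41420588, plus strand: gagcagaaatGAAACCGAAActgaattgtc
BST2, chr19:17405738-17405767, minus strand: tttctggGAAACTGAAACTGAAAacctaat
RSAD2, second start, chr2:6877622-6877651, plus strand: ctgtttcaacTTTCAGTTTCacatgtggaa
IFI6, chr1:27672266-27672358, minus strand: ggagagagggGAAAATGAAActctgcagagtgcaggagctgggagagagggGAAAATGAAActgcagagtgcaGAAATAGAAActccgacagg
IFI27, chr14:94110618-94110660, plus strand: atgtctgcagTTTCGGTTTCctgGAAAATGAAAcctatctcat
IFI44, chr1:78649761-78649788, plus strand: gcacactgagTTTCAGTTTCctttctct
IFI44L, chr1:78620274-78620394, plus strand: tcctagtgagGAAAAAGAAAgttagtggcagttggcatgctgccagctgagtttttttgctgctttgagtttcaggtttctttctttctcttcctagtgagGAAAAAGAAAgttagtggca
EPSTI1, chr13:42992272-42992301, minus strand: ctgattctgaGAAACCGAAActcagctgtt

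IFI6 held 3 copies, which began 156, 115 and 93 bases upstream of the start site, and the first 2 of them had the same spacer letters. In BST2 the 2 copies overlapped and made 1 run of 3 GAAA units, and in IFI44L the same 10 letters occurred 164 and 73 bases upstream. IFI27 had 1 copy on each strand, 108 and 95 bases upstream. The copies of IFI44 and EPSTI1 began 18 and 50 bases upstream, that of RSAD2 145 bases upstream of its second start, and the copy of MX1 shown began at base 12 of the transcript from its first start, inside the 5′ untranslated exon. MX1 had another copy, 196 bases upstream of another of its starts. A shorter form with a spacer of 1 base, GAAANGAAA, was searched after the windows had been read. It occurred in 4 of the 9 genes and in 3.87% of all genes. The window of the first start of RSAD2 had 4 copies of it. The second of the CMPK2 windows, which overlaps that of RSAD2 on the other strand, held 2 of the same copies, and the other CMPK2 windows had 0. In MX1 and IFI44, a copy of the shorter form overlapped one of the longer form. The copy nearest to the first start of RSAD2 is shown here because it is shared with the second window of CMPK2.
RSAD2, first start, chr2:6865815-6865843, plus strand: gcgttgcgggGAAACGAAAgccggaggcc

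The windows also differed in CpG sites, the dinucleotides that DNA methyltransferases modify. The windows of IFI44 and IFI44L contained 0 CpG sites, that of BST2 2 and the first window of IFI27 4, in comparison to a median of 14 over all windows (quartiles 4 and 28). IFI6 had 9 and EPSTI1 18, and the 3 windows of MX1 had 20, 30 and 6. The first window of RSAD2 had 45, more than 96.5% of all windows, but its second window, which holds the motif shown, had 4. The windows of CMPK2 had 2, 41 and 38. A motif match is a description of letters and not of a bound site, and DNA methylation at these windows was not analysed here.

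**Figure D1:**
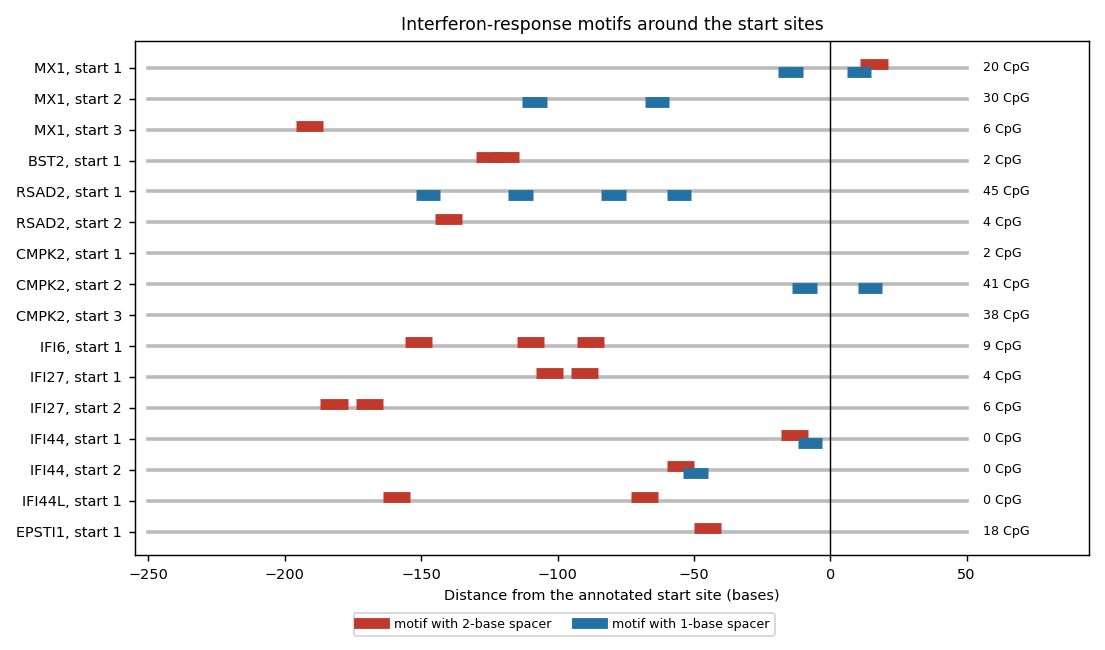
Position of the motifs in the RefSeq promoter windows of 9 of the 10 genes, as the distance from the annotated start site in bases, with the number of CpG sites of each window at the right. Red bars mark the motif with a 2-base spacer and blue bars that with a 1-base spacer, each drawn on either strand. IFI6 has 3 red bars, RSAD2 has 4 blue bars at its first start, and the windows of IFI44 and IFI44L have 0 CpG sites.

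In the comparison of decitabine with the controls, all 10 genes rose, by 2.78-fold in BST2 to 116-fold in EPSTI1. No Dec library overlapped a Ctrl library in any of them. Of all 18532 genes tested, 36.3% were called higher in this comparison (38.1% were higher without overlap), so a call by itself was common. The median log2 fold change of the 10 genes was 5.23, beside 0.03 over all genes. The fit takes 1 spread per gene from all 9 libraries, so the standard errors of these increases also include the spread within Dec_Sam. Without Dec_Sam replicate 3 they were smaller in each of the 10 genes. That of MX2 went from 1.05 to 0.15 and that of RSAD2 from 1.17 to 0.14. In bulk RNA, fewer cells with high expression and less RNA per cell cannot be told apart.

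MX1 and MX2 are dynamin-like GTPases that trap incoming viral particles, and they lie side by side on chromosome 21. MX1 (41420020 to 41470071, plus strand, 17 exons in the canonical transcript) had 27.06, 25.26 and 11.7 CPM in Ctrl. It had 671.2, 595.2 and 483.0 CPM in Dec and 65.44, 83.28 and 210.4 CPM in Dec_Sam. The Dec libraries were thus the highest and the Ctrl libraries the lowest, with Dec_Sam between them and no overlap. MX2 (41361999 to 41409393, plus strand, 14 exons) was almost silent in Ctrl, at 2.036, 1.651 and 0.8886 CPM. It had 117.3, 107.9 and 115.4 CPM in Dec, and 4.528, 5.059 and 37.48 CPM in Dec_Sam. The Dec libraries of MX2 lay close together, and Dec_Sam replicate 3 was 7.82 times the mean of the other Dec_Sam libraries. Decitabine raised MX1 27.3-fold (log2 fold change 4.77, standard error 0.60, adjusted p = 4e-04) and MX2 74.3-fold (6.21, standard error 1.05, adjusted p = 0.0019).

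BST2, or tetherin, holds budding virus particles at the cell surface. Its gene on chromosome 19 (17402939 to 17405630, minus strand, 5 exons) was the only one of the 10 with a high level in the controls, at 257.1, 270.4 and 254.4 CPM. Dec libraries had 742.5, 720.0 and 707.5 CPM, and Dec_Sam libraries 256.9, 248.7 and 379.8 CPM. Dec was above every other library, whereas Dec_Sam replicates 1 and 2 lay within or just below the range of the controls. The increase with decitabine was the smallest of the 10 in fold (log2 fold change 1.47, standard error 0.13, adjusted p = 1.3e-06). BST2 was also the most abundant of the 10 genes per kilobase of transcript in the controls, at 260 ± 8.56 CPM per kilobase (SD, n = 3).

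RSAD2 and CMPK2 are neighbours on chromosome 2 that are read from opposite strands and overlap at their first exons. CMPK2 is a mitochondrial nucleoside monophosphate kinase that supplies CTP, and RSAD2, or viperin, turns CTP into a chain terminator of viral RNA synthesis. RSAD2 (6865557 to 6898239, plus strand, 6 exons) had 2.681, 2.651 and 1.728 CPM in Ctrl, 269.9, 245.3 and 291.1 in Dec, and 10.15, 12.54 and 98.78 in Dec_Sam. CMPK2 (6840570 to 6866635, minus strand, 5 exons) had 6.157, 6.754 and 5.726 CPM in Ctrl, 124.3, 100.9 and 98.04 in Dec, and 13.06, 14.21 and 44.47 in Dec_Sam. In both genes the 3 groups did not overlap, and the control level was low. Decitabine raised RSAD2 114-fold (log2 fold change 6.83, standard error 1.17) and CMPK2 17.3-fold (4.12, standard error 0.55). Whether counting used the strand of the reads is not given in the sources used here, so reads of the shared bases may have been divided between these genes.

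IFI6 and IFI27 encode small hydrophobic proteins of a shared family that are found in mitochondrial and endoplasmic reticulum membranes. IFI6 (chromosome 1, 27666064 to 27672212, minus strand, 5 exons) had 32.47, 25.51 and 13.28 CPM in Ctrl. It rose to 718.4, 956.4 and 1200.0 CPM in Dec and had 92.09, 99.87 and 443.0 CPM in Dec_Sam. IFI6 had the widest spread of the 10 genes among the Dec libraries in CPM, and it was the most abundant of the 10 per kilobase there, at 1180 ± 297 CPM per kilobase. IFI27 (chromosome 14, 94104836 to 94116695, plus strand, 5 exons) had 8.987, 8.205 and 5.381 CPM in Ctrl, 501.3, 659.2 and 729.8 in Dec, and 93.44, 108.6 and 322.2 in Dec_Sam. Each Dec_Sam library of IFI27 was thus far above the controls, and the fold over Ctrl was 83.7 with decitabine and 23.2 with the combination treatment.

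IFI44 and IFI44L are paralogues next to each other on chromosome 1 that are induced together by interferon. IFI44 (78649796 to 78664078, plus strand, 9 exons) had 15.14, 16.76 and 10.76 CPM in Ctrl, 237.2, 193.6 and 174.8 in Dec, and 30.22, 34.58 and 82.98 in Dec_Sam. IFI44L (78619902 to 78646145, plus strand, 9 exons) had 4.518, 4.603 and 2.567 CPM in Ctrl, 157.0, 132.0 and 121.0 in Dec, and 15.41, 18.43 and 59.42 in Dec_Sam. The order of the libraries within Dec and within Dec_Sam was the same in both genes. Decitabine raised IFI44 14.2-fold and IFI44L 35.1-fold, with log2 fold changes of 3.83 (standard error 0.46) and 5.13 (standard error 0.66). Paralogues can share reads, so the split between them is uncertain where their transcripts are alike.

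EPSTI1, first described as a gene of breast epithelium induced by contact with stroma, lies on chromosome 13 (42886388 to 42992271, minus strand, 11 exons). It had 4, 2 and 1 counts in Ctrl, which is 0.1986, 0.1001 and 0.04937 CPM. Dec libraries had 325, 293 and 381 counts (13.74, 12.36 and 16.14 CPM) and Dec_Sam libraries 30, 24 and 144 counts (1.306, 1.056 and 6.134 CPM). The groups did not overlap. The fold of 116 with decitabine (log2 fold change 6.86, standard error 0.96, adjusted p = 0.00045) rests on a control level of few counts, and EPSTI1 remained the least abundant of the 10 genes per kilobase in every group.

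**Figure D2:**
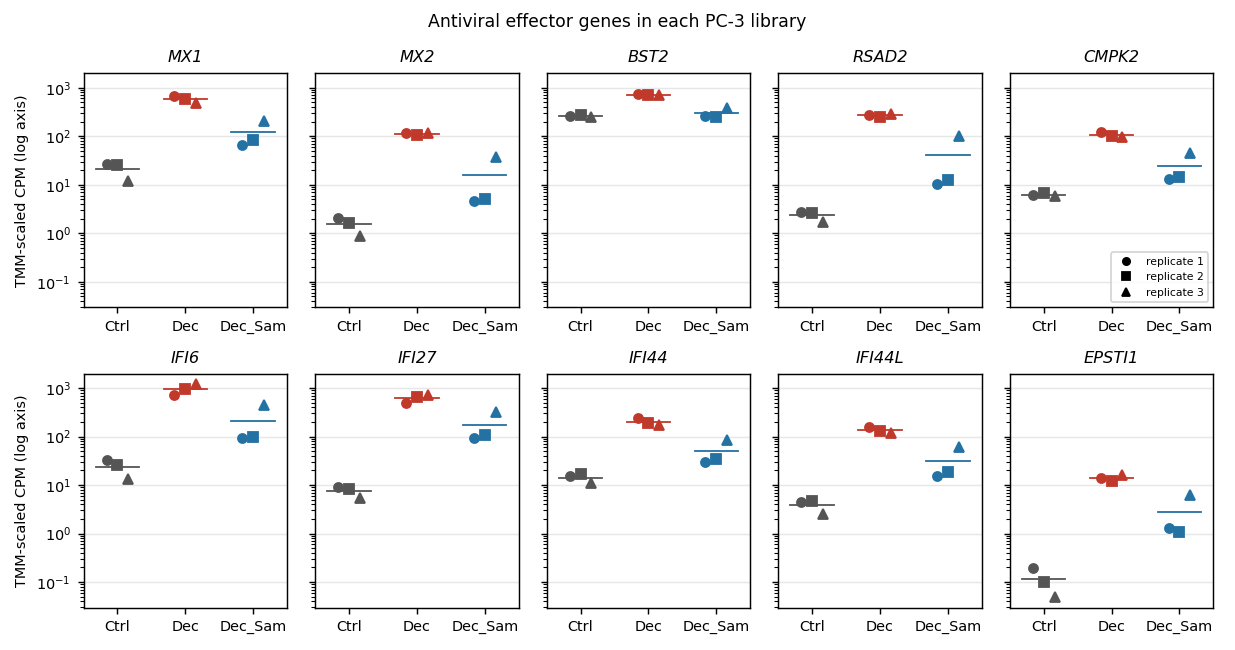
Expression of the 10 genes in each library, as TMM-scaled CPM on a log axis, with circles, squares and triangles for replicates 1, 2 and 3 and a line at the mean of each group. All Dec libraries are above all other libraries of the same gene, and the triangle of Dec_Sam is above the other Dec_Sam points in every panel.

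Compared per kilobase of transcript, the order of the levels changed with treatment. In Ctrl, BST2 was followed by IFI6 (29.3 ± 12 CPM per kilobase) and IFI27 (10.4 ± 2.62), then by IFI44 (8.45 ± 1.85) and MX1 (7.69 ± 3.02), and the ranges given by the SDs of these last 3 met. CMPK2 (2.01 ± 0.167), RSAD2 (0.691 ± 0.159), IFI44L (0.668 ± 0.198) and MX2 (0.448 ± 0.171) came next, and EPSTI1 (0.0374 ± 0.0244) was the lowest. The SD ranges of RSAD2, IFI44L and MX2 met, although MX2 was the lowest of these 3 in every Ctrl library. In Dec, IFI6 (1180 ± 297), IFI27 (869 ± 161) and BST2 (723 ± 17.7) led. The SD range of IFI27 met those of IFI6 and BST2, although IFI6 was above IFI27 in every Dec library. These leading genes were followed by MX1 (210 ± 34.1), IFI44 (120 ± 19.0), RSAD2 (78.9 ± 6.73), CMPK2 (34.8 ± 4.65), MX2 (33.3 ± 1.46), IFI44L (23.4 ± 3.16) and EPSTI1 (4.53 ± 0.616), with CMPK2 and MX2 at levels within their spread. In Dec_Sam, BST2 had again the highest mean (295 ± 73.4), ahead of IFI6 (261 ± 247) and IFI27 (241 ± 176), although these 3 could not be ordered given their spread.

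The combination treatment was next compared with the controls. Of the 10 genes, 9 were called higher in Dec_Sam, the exception being BST2, while 35.9% of all genes tested were called higher. The same 9 genes were higher without overlap, as were 38% of all genes. The median log2 fold change of the 10 genes was 3.08, beside 0.05 over all genes. EPSTI1 and IFI27 had the largest increases, at 23.5-fold and 23.2-fold (log2 fold changes 4.55 and 4.54, standard errors 1.14 and 0.62), and IFI44 the smallest of those called, at 3.47-fold (1.79, standard error 0.45, adjusted p = 0.011). In BST2 the groups overlapped, and its value of 0.18 on the log2 scale was not called (standard error 0.13, adjusted p = 0.25). Without Dec_Sam replicate 3, the same number of genes, 9, was called, but the median fell from 3.08 to 1.91, and the values of RSAD2, MX2 and EPSTI1 fell to 2.26, 1.65 and 3.28. The log2 fold change of BST2 was then -0.05 (standard error 0.07, adjusted p = 0.57), of opposite sign to the value with all libraries, and at that setting 34% of all genes were called higher. IFI27 then had the largest increase of the 10, at 13.4-fold. Without Ctrl replicate 3, MX2, RSAD2 and CMPK2 were no longer called (adjusted p = 0.1, 0.063 and 0.059).

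The question of what SAM added to decitabine was addressed by the comparison of Dec_Sam with Dec. Every one of the 10 genes was lower in each Dec_Sam library than in each Dec library, as were 16.8% of all genes tested. The quasi-likelihood test called 6 of the 10 genes lower (MX1, BST2, CMPK2, IFI44, IFI44L and EPSTI1) and none higher, against 8.02% of all genes called lower. The median log2 fold change of the 10 was -2.17, beside 0.00 over all genes. BST2 had the smallest difference and the smallest error, 2.45-fold lower (log2 fold change -1.29, standard error 0.13, adjusted p = 0.00037). MX1 was 4.87-fold lower (-2.28, standard error 0.52, adjusted p = 0.034), CMPK2 4.50-fold (adjusted p = 0.029) and EPSTI1 4.94-fold (adjusted p = 0.039). The paralogues IFI44 and IFI44L were 4.10-fold and 4.39-fold lower (adjusted p = 0.023 and 0.042).

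The genes not called in that comparison were MX2, RSAD2, IFI6 and IFI27. MX2 and RSAD2 had the largest fitted differences of the 10, 7.21-fold and 6.63-fold lower, and they ranked 13 and 15 among all 18532 genes by the size of the fitted decrease. Their standard errors were 0.78 and 0.86 and their adjusted p-values 0.058 and 0.085. IFI6 (log2 fold change -2.18, standard error 0.71) and IFI27 (-1.85, standard error 0.51) had adjusted p-values of 0.092 and 0.058. All 10 genes had an unadjusted p under 0.05.

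Without Dec_Sam replicate 3, all 10 genes were called lower, while 10.5% of all genes were, and the median log2 fold change was -3.00. Because that library was left out for its high level of these genes, the added calls follow in part from the choice. MX2 was then 23.6-fold lower (log2 fold change -4.56, standard error 0.15) and RSAD2 23.7-fold lower (-4.56, standard error 0.13). EPSTI1 was 11.9-fold, IFI6 9.97-fold, CMPK2 7.89-fold and IFI27 6.23-fold lower, and BST2 again had the smallest difference at 2.86-fold. Leaving out any other single library lowered the number of genes called to between 1 and 3 of 10. It was 3 without Ctrl replicate 1 or 3, 2 without Ctrl replicate 2 or Dec replicate 3, and 1 without Dec replicate 1 or 2 or Dec_Sam replicate 1 or 2. The share of all genes called lower moved as well. It was 7.56%, 6.13% and 7.19% without Ctrl replicates 1, 2 and 3, 4.94%, 3.14% and 8.05% without Dec replicates 1, 2 and 3, and 4.07% and 2.53% without Dec_Sam replicates 1 and 2. BST2 was called lower in all 17 alternatives that tested for any difference, with adjusted p-values from 1.9e-48 to 0.0042.

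**Figure D3:**
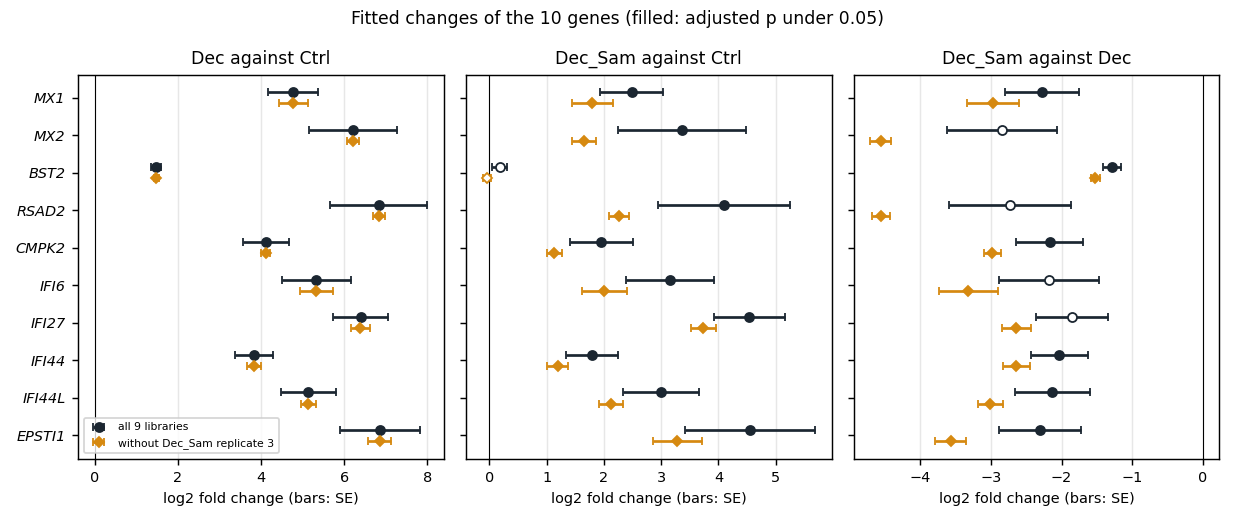
Fitted log2 fold changes of the 10 genes with standard errors in the 3 comparisons, from all 9 libraries (black circles) and without Dec_Sam replicate 3 (orange diamonds), filled where the adjusted p was under 0.05. Increases with decitabine hardly move, whereas in Dec_Sam against Dec MX2 goes from -2.85 to -4.56 and becomes called.

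The increase in Dec_Sam was next expressed as a share of that in Dec. For each Dec_Sam library, the share was the level above the mean of Ctrl over the mean difference between Dec and Ctrl. In Dec_Sam replicate 1 it was between -0.807% (BST2) and 13.8% (IFI27), and in replicate 2 between -2.59% and 16.2% in the same genes. In replicate 3 it was between 25.8% (BST2) and 50.6% (IFI27). MX2 and RSAD2 had only 2.92% and 3.37% as the mean of replicates 1 and 2, and 32.1% and 36.2% in replicate 3. The order of BST2 at the bottom and IFI27 at the top held in each of the 3 libraries, although their sizes differed. These shares have the Dec and Ctrl means in common and are given without a test.

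Dec_Sam replicate 3 was also placed on the line between the mean of Dec_Sam replicates 1 and 2, taken as 0%, and the mean of Dec, taken as 100%. The 10 genes lay between 26.7% (MX1) and 41.8% (IFI27), with a median of 33.4%. A set of 34 other interferon-stimulated effectors had a median of 33%. Outside these lists, 480 genes were lower in Dec_Sam by more than 1 log2 unit without replicate 3, and there the median was 40.8% with quartiles of 28.5% and 57.4%. The 110 genes that were higher by the same limit had a median of 61.7%. These sets of 480 and 110 genes were chosen by the distance of Dec_Sam replicates 1 and 2 from Dec, which by construction favours positions above 0%, so nothing is read from their medians.

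**Figure D4:**
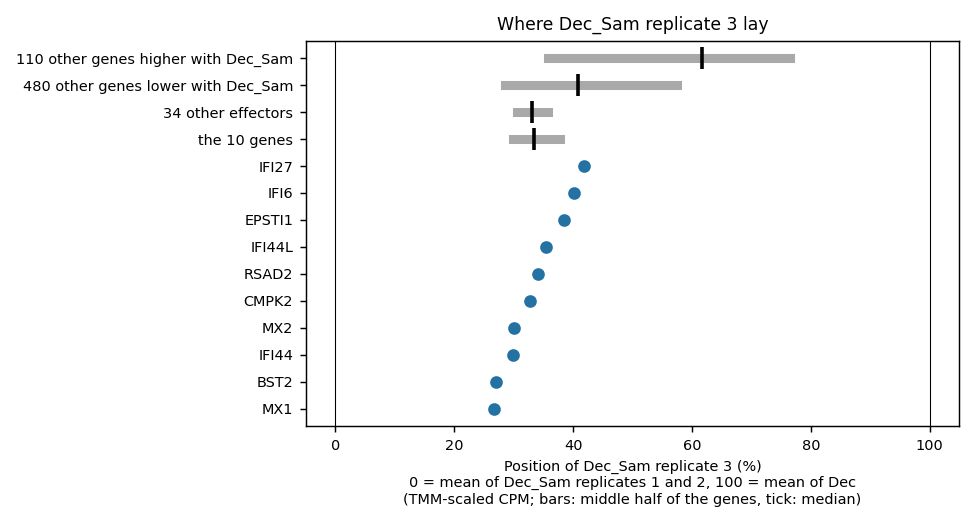
Position of Dec_Sam replicate 3 between the mean of Dec_Sam replicates 1 and 2 (0%) and the mean of Dec (100%), calculated on TMM-scaled CPM, for each of the 10 genes (points) and for sets of genes (tick at the median, bar over the middle 50% of the genes). The 10 genes lie from 26.7% to 41.8%, and the medians of the 480 lower and 110 higher genes outside the lists are 40.8% and 61.7%.

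The rest of the interferon pathway was described with 62 genes listed by role, of which 56 were tested. With decitabine 48 were called higher and 4 lower, with the combination treatment 32 were higher and 2 lower than in Ctrl, and between the treatments 40 were lower and 1 higher in Dec_Sam. Over all genes tested, the shares called higher and lower were 36.3% and 32.5% with decitabine, 35.9% and 31.3% with the combination treatment, and 7.67% and 8.02% between them. The median log2 fold changes of the 56 genes were 2.36, 0.85 and -1.47. Without Dec_Sam replicate 3, 33 of the 56 were called higher and 9 lower than in Ctrl, with a median of 0.52, and 43 were lower and 2 higher than in Dec, with a median of -1.89. At that setting 34% of all genes were called higher and 29.9% lower than in Ctrl, and 10.9% higher and 10.5% lower than in Dec.

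Ligands were hardly counted. IFNA1 and IFNG had no counts in any library. IFNB1, the type I interferon of most non-immune cells, had 1, 1 and 0 counts in Ctrl, 13, 10 and 27 in Dec, and 0, 2 and 16 in Dec_Sam, where the 16 belonged to replicate 3. It was called higher with decitabine (adjusted p = 0.0088) but in neither comparison of Dec_Sam (adjusted p = 0.11 against Ctrl and 0.25 against Dec). IFNB1 was called lower in Dec_Sam than in Dec once Dec_Sam replicate 3 was left out (log2 fold change -3.84, standard error 0.86, adjusted p = 0.0061). That library held most of the IFNB1 counts of Dec_Sam and was picked for its high interferon-induced genes, so nothing is read from this call. The type III interferon IFNL1 was too low to be tested, with 1, 0 and 0 counts in Ctrl, 7, 10 and 22 in Dec and 4, 4 and 3 in Dec_Sam. Its relative IFNL2 had no counts in Ctrl, 8, 7 and 8 in Dec and 0, 3 and 5 in Dec_Sam. IFNL3, with 0, 1 and 0, then 1, 4 and 6, then 0, 1 and 2 counts in the same order, overlapped between the groups, and IFNK had at most 2 counts in any library. IFNE, an interferon of reproductive tract epithelium, went the other way, with 19, 33 and 28 counts in Ctrl, 12, 17 and 11 in Dec, and 36, 33 and 20 in Dec_Sam, and was called lower with decitabine and higher in Dec_Sam than in Dec (adjusted p = 0.029, and 0.0078 without Dec_Sam replicate 3).

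None of the 6 receptor genes was called between the treatments in edgeR's quasi-likelihood test. None had an unadjusted p under 0.05, and DESeq2 and voom with limma also called 0 of the 6. The largest fitted difference was that of IFNLR1, the type III receptor chain, at 0.15 on the log2 scale (standard error 0.10), and the smallest that of IFNGR1, an interferon gamma receptor chain, at 0.05 (standard error 0.12). IFNGR1 was higher than in Ctrl with both treatments, with log2 fold changes of 1.20 and 1.25. The receptors called between the treatments were still 0 of 6 without Dec_Sam replicate 3, and IFNLR1 and IFNGR1 then had 0.11 and -0.09.

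Of 9 signalling genes, 6 were called lower in Dec_Sam than in Dec. STAT2, which carries the signal to the nucleus, had log2 fold changes of 2.16 in Dec, 0.64 in Dec_Sam and -1.51 between them, the second not called (adjusted p = 0.09). IRF9, which binds STAT2 and gives the complex its DNA specificity, had 2.21, 1.08 and -1.13, all called. IRF7, which amplifies interferon production, had 3.16, 1.86 and -1.30, all called. IRF1 had 1.15, 0.24 (not called) and -0.91. IRF3, which is activated by phosphorylation rather than by synthesis, had 0.63 and 0.63 over Ctrl, both called, and 0.00 between the treatments (standard error 0.06, adjusted p = 0.99). Without Dec_Sam replicate 3, the same number of signalling genes, 6, was called lower than in Dec, and the median log2 fold change of the 9 against Ctrl went from 0.63 to 0.22. STAT2, IRF9, IRF7 and IRF1 then had 0.22, 0.96, 1.48 and 0.04 against Ctrl, with STAT2 and IRF1 again not called, and -1.94, -1.24, -1.68 and -1.11 against Dec. Among 5 negative regulators, the largest difference between the treatments was that of USP18, which removes ISG15 from proteins and blocks the receptor. It had log2 fold changes of 2.98, 1.07 and -1.91, all called, and the last 2 became 0.51 and -2.47 without Dec_Sam replicate 3. PIAS1, a SUMO ligase, had the smallest (0.08, standard error 0.09).

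All 34 other effectors tested were called higher with decitabine, 23 with the combination treatment, and 32 were lower in Dec_Sam than in Dec. Their median log2 fold changes were 3.14, 1.25 and -1.76, smaller in size than the 5.23, 3.08 and -2.17 of the 10 genes. The difference between the lists was not tested. TRIM22, an antiviral ubiquitin ligase, had the largest difference between the treatments (log2 fold change -2.86, standard error 0.58), and IFITM2, which blocks viral fusion, the smallest (-0.51, standard error 0.07). Without Dec_Sam replicate 3, 24 of these effectors were called higher than in Ctrl, 6 were called lower, and all 34 were lower than in Dec, with medians of 0.70 and -2.27. TRIM22 was among the 6, with a log2 fold change of -1.58 against Ctrl, and had -4.53 against Dec.

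**Figure D5:**
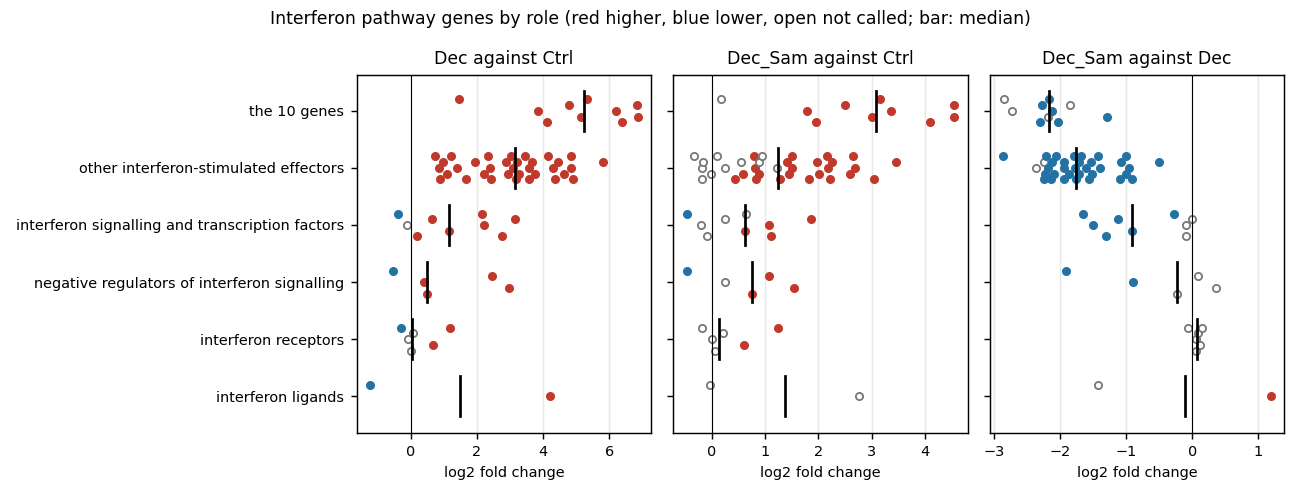
Log2 fold changes of the 10 genes and of the 56 tested pathway genes by role in the 3 comparisons, with red for called higher, blue for called lower, open for not called, and a bar at the median of each list. With decitabine all 34 other effectors are red, and between the treatments the 6 receptor genes are open and lie around 0.

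Across the 9 libraries, the 10 genes varied together. Pearson's r of each gene's log2 CPM with the mean of the other 9 genes was 0.909 for BST2, 0.961 for IFI27 and 0.990 to 0.998 for the remaining 8. These libraries fall into treatment groups and share their treatment, so the values describe a common pattern and carry no p. Of 14312 genes whose mean reached 50 counts in some group, those most like the mean of the 10 genes over the 9 libraries were OAS2 (r = 0.9986), IFIT1 (0.9984), RIGI (0.9978), BATF2 (0.9975), ISG15 (0.9975), THEMIS2 (0.9972), UBE2L6 (0.9963), OASL (0.9963), HLA-E (0.9952) and SAMD9L (0.9951). OAS2, for example, had 17.43 to 25.36 CPM in Ctrl, 409.4 to 500.4 in Dec, and 51.34, 61.9 and 183.8 in Dec_Sam, with replicate 3 again the highest.

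The nearest protein-coding genes that do not overlap the 10 genes did not share one pattern with them. ADGRL4, an adhesion receptor gene 225686 bases beyond IFI44, had no counts in Ctrl, 9.87 to 16.1 CPM in Dec and 8.09 to 12.3 in Dec_Sam. DNAJC15, a mitochondrial co-chaperone gene 30932 bases beyond EPSTI1, had at most 0.0494 CPM in Ctrl, 6.06 to 8.31 in Dec and 5.37 to 6.39 in Dec_Sam. Both were called higher than in Ctrl with both treatments, and between the treatments neither was called, with log2 fold changes of -0.28 (standard error 0.21, adjusted p = 0.39) and -0.27 (standard error 0.17, adjusted p = 0.3). On the side of MX1, RIPK4, 269298 bases away, was not called with decitabine (log2 fold change -0.06, adjusted p = 0.63). On the side of IFI44L, PTGFR, 79201 bases away, had 0.04 (adjusted p = 0.72). IFI27L1 and IFI27L2, which flank IFI27 and belong to its family, had log2 fold changes of 0.64 (called) and 0.30 (not called) with decitabine. RIPK4 and IFI27L2 were higher in Dec_Sam than in Dec, by 0.37 and 0.41 on the log2 scale (adjusted p = 0.026 and 0.048), opposite in sign to the fitted values of MX1 and IFI27. RNF144A near RSAD2 and FAM76A near IFI6 fell with decitabine, with log2 fold changes of -0.32 and -0.46. FAM3B, SOX11, FGR and FAM216B, the other neighbours, were too low to be tested.

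The region of BST2 contained genes that went both ways. MVB12A, an endosomal sorting gene that starts 92 bases away on the other strand, fell with decitabine from 65.2 ± 12.1 to 35.8 ± 1.48 CPM (log2 fold change -0.86, standard error 0.11) and had 42.8 ± 2.98 CPM in Dec_Sam. CCDC194, on the other side of BST2, rose from 0.265 ± 0.103 to 2.51 ± 0.529 CPM and had 0.818 ± 0.51 CPM in Dec_Sam, with log2 fold changes of 3.22 against Ctrl and -1.60 between the treatments (adjusted p = 0.01). BISPR, a long non-coding RNA that starts 56 bases from BST2 on the other strand, was looked up after these values had been seen. It had 7.54 ± 0.664 CPM in Ctrl, 43.6 ± 4.86 in Dec and 12.7 ± 6.53 in Dec_Sam, and its log2 fold changes were 2.53 and, between the treatments, -1.78 (adjusted p = 0.01). BISPR and MVB12A overlap on the same strand, so the split of reads between them is uncertain. Other genes that overlap the 10 genes, among them TMPRSS2 at the end of MX1, had at most 0.254 CPM in any library, apart from RSAD2 and CMPK2, which overlap each other.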

How the data were processed

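RNA was measured in 9 libraries of PC-3 cells on the BGISEQ-500 platform, with groups and replicate numbers taken from the sample labels, the 5 days from the labels and the doses from the study's methods. The labels' extraction text speaks of genomic DNA and bisulphite, whereas the molecule label and the methods name total RNA. Reads were trimmed with Trim Galore 0.6.4 and quantified with kallisto against GRCh38.p13, and the submitters' processing notes give its version as 0.4.6. The authors deposited estimated counts per Ensembl gene, which are not normalized and hold decimals. The log2 CPM values deposited beside them equal those of edgeR at a prior count of 2 and were not used further.

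After rounding to whole numbers, genes were filtered with filterByExpr of edgeR 4.0.16 (R 4.3.3). Libraries were scaled by TMM, and the 9 libraries were fitted together with 1 mean per group. Groups were compared with the quasi-likelihood test, with Benjamini-Hochberg adjustment over all 18532 genes tested. A gene was called at an adjusted p under 0.05. CPM are TMM-scaled, and errors are SDs of 3 libraries or standard errors of log2 fold changes. With library size alone as the scaling, the median change over all genes moved on the log2 scale from 0.03 to 0.28 for Dec against Ctrl and from 0.05 to 0.27 for Dec_Sam against Ctrl. Positions and transcript lengths are those of GENCODE release 44 on GRCh38, promoter sequences those of RefSeq on GRCh38.p14. The test was tested on simulated data in 5 draws. These gave every gene the same dispersion and held no outlying library, so they do not show how the test behaves for the genes described here. No library was a copy of another of its own group in a chi-square test of counts, and pairs from different groups were not compared. Figures were drawn with matplotlib 3.10.9.

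The 10 genes and the pathway lists were chosen with earlier results of these data known. The other genes named were, by rule, the pathway genes with the largest and the smallest difference between the treatments in each list, and all STAT, IRF and USP18 genes. The rule also took the nearest protein-coding gene without overlap on each side of each gene or pair, and the 10 genes most like the mean of the 10. Ligands without enough counts were given as counts. Some results on single genes that the rule selects are not reported here. The fit was repeated with other scalings (DESeq2's size factors or only the library size), other tests (DESeq2 1.42.0, and voom with limma 3.58.1), other filters (none, or 10 counts on average), a block for the replicate number, a threshold of 1 on the log2 fold change, only the groups compared, and each library left out in turn.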

Additional observations from a re-analysis of the deposited data

How the results depend on the processing

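With decitabine against Ctrl, the 169 values of single genes obtained under the alternatives kept their direction and their call. For Dec_Sam against Ctrl 152 of 169 did, 15 lost the call, 1 gained it (BST2, with library size alone) and 1 reversed, BST2, which ranged from -0.05 (without Dec_Sam replicate 3) to 0.28 when each library was left out. For Dec_Sam against Dec 113 of 169 kept both, 45 lost the call and 11 gained it, with no change of direction. DESeq2 gave MX2 no p-value, so MX2 has no value under that alternative.

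The number of the 10 genes called in Dec_Sam against Dec was 6, while 2908 of all genes were called in either direction. For the 10 genes the number changed to 10 with voom and limma, 3 without a filter, and 1 with only the 6 libraries compared. Over all genes it was 2963, 3537 and 2174 in the same order. Without a filter, fewer of the 10 genes but more of all genes were thus called, among more genes tested. DESeq2 called 9 of the 10 genes and 3121 of all genes. With a threshold of 1 on the log2 fold change, edgeR's glmTreat called 0 of the 10 genes, 0 of the 56 pathway genes and 0 of all genes between the treatments, although 10 and 30 had an unadjusted p under 0.05. The same threshold left 4 of the 10 genes, 8 pathway genes and 3361 of all genes in Dec_Sam against Ctrl. With only the 6 libraries compared, 23 pathway genes were called in Dec_Sam against Dec instead of 41.

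When each library was left out in turn, the number of the 10 genes called ranged from 10 to 10 for Dec against Ctrl, from 6 to 9 for Dec_Sam against Ctrl and from 1 to 10 for Dec_Sam against Dec. Over all genes, the number called in either direction ranged from 11956 to 13160, from 11739 to 12751 and from 861 to 4063 in the same order. Pathway genes called ranged from 24 to 42 and from 14 to 45 in the last 2 comparisons. The lowest numbers of pathway genes in Dec_Sam against Dec were 19 and 16 without Dec replicates 1 and 2, and 14 without Dec_Sam replicate 2. The median log2 fold change of the 10 genes ranged from 1.91 to 3.41 for Dec_Sam against Ctrl and from -3.00 to -1.85 for Dec_Sam against Dec, with 1.91 and -3.00 both reached without Dec_Sam replicate 3. A library left alone with 1 partner is assumed to vary like the other groups.

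Replicate numbers are shared between groups, and deviations of same-numbered libraries had correlations of -0.017 to 0.233. Between Dec and Dec_Sam, the replicates numbered 1 had 0.233, those numbered 2 had 0.036 and those numbered 3 had 0.229. Dec replicate 1 with Dec_Sam replicate 3, and Dec replicate 3 with Dec_Sam replicate 1, each had -0.22. Whether same-numbered libraries were handled together is not known. With the replicate block, 3 instead of 6 of the 10 genes were called in Dec_Sam against Dec, while 3656 instead of 2908 of all genes were. Of the 9 libraries, 7 correlated best with their own number. Deviations within a group depend on each other and each pair counts for both of its libraries, so nothing is read from this number. EPSTI1 and IFNB1 had few counts in Ctrl, but their errors also depended on Dec_Sam replicate 3. For Dec against Ctrl, the standard error of EPSTI1 was 0.96 with all libraries and 0.28 without that library. For IFNB1 it was 1.2 and 0.8.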
